A study of Rattus norvegicus with 23 samples.

Results

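Retnla and 5 further resistin, arginase and chitinase family genes were examined in the lungs of elderly rats after inhalation of a titanium dioxide (TiO2) nano-aerosol. The set is named after macrophage alternative activation, but not every gene in it is a marker of that state. The 6 genes were Retnla, Retn, Arg1, Arg2, Chi3l1 and Chia, out of 23009 genes with a usable signal. They were selected by name, and the set was put together because Retnla stood among the strongest rises in exposed lungs, so the exposed-to-control difference of Retnla on D0 and D28 is given here as a description with no test. The other 5 genes entered by their names and were tested, though the set was chosen with earlier results of these data known. Accessory lung lobes of male F344 rats aged 19 months at the start of inhalation were profiled on single-colour Agilent arrays, 1 rat per array. Exposed rats breathed the TiO2 aerosol through the nose at 10 mg/m3 for 4 weeks, in daily sessions of 6 h on 5 days of each week, and control rats breathed filtered air in the same way. Lobes were taken on the last day of exposure (D0) from 6 control and 5 exposed rats, and 28 days later (D28) from 6 control and 6 exposed rats.

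Macrophages stimulated by the type 2 cytokines interleukin-4 and interleukin-13 take on an alternatively activated state, in contrast to the classical state driven by interferon and bacterial products. In rodents this state is read from a few secreted proteins and enzymes. Retnla (resistin-like alpha, also called FIZZ1) is a small secreted protein made by macrophages and by airway and alveolar epithelium during type 2 inflammation. Arg1 is the arginase that turns arginine into ornithine and urea. Chia is acidic mammalian chitinase, and Chi3l1 is a chitinase-like protein that binds chitin without cutting it. Arg2 is the mitochondrial arginase, and Retn is resistin, a hormone of rodent fat cells.

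Each of the 6 genes had 1 probe of 60 bases, and the Retn probe was spotted 10 times. All 6 probes were well above background, as marked by the scanner software, on all 23 arrays. Values are log2 signals after quantile normalization between arrays, and a signal is set only against the same probe on other arrays. Between 69.5% and 77.9% of spots were well above background on an array, and each array correlated with the others of its group at a median r of 0.969 to 0.985. The number of arrays is what limits the precision. The arrays lay on 5 slides, and control rat 4 of D28 was alone on its slide and was read with another version of the scanner software. Lung lobes hold many cell types, so more cells of a type and more RNA per cell cannot be told apart here.

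Retnla was far higher in exposed than in control lungs on both days. On D0 the background-subtracted signals of the 5 exposed rats were 10629, 10333, 8159, 1730 and 4602, and those of the 6 control rats ran from 412 through a median of 692 to 948. Every exposed rat lay above every control rat, and exposed rat 4 stood lowest of its group. After normalization the exposed mean was 12.43 ± 0.74 (SD, n = 5) and the control mean 9.17 ± 0.48 (SD, n = 6) on the log2 scale. The difference was 3.25 (SE 0.31), a fold change (FC) of 9.53, and ranked 2 of 23009 genes counted from the highest.

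The difference was still present 28 days after exposure. On D28 the exposed signals ran from 2156 through a median of 4701 to 6230, and the control signals from 436 through 748 to 1307, again with no overlap. The normalized means were 12.17 ± 0.51 (SD, n = 6) and 9.53 ± 0.33 (SD, n = 6). The D28 difference of 2.64 (SE 0.29), FC = 6.21, ranked 8 of 23009. From D0 to D28 the exposed mean moved by -0.26 (SE 0.31) and the control mean by 0.36 (SE 0.29) on the log2 scale, and the change of the control rats did not pass the test (limma, adjusted p = 0.65, 95% confidence interval -0.25 to 0.96).

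**Figure D1:**
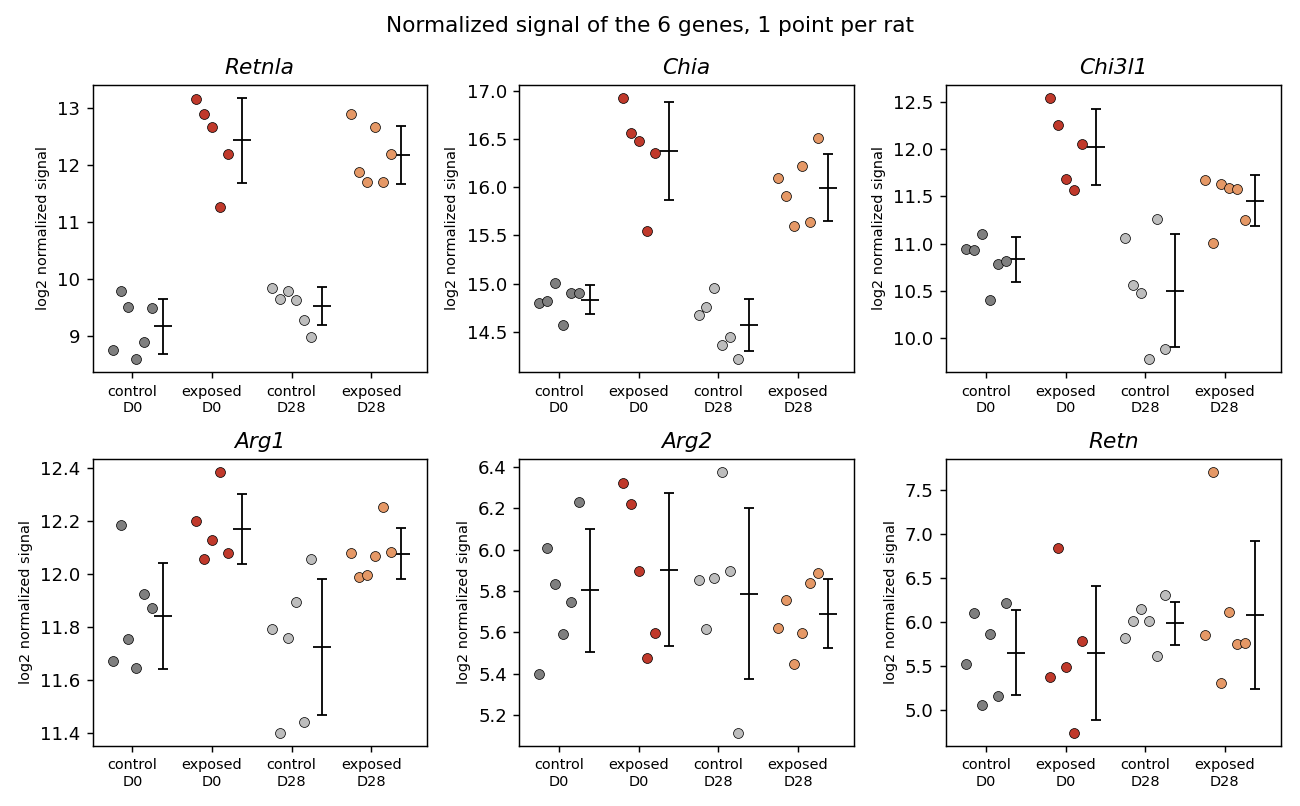
Log2 normalized signal of the 6 genes, 1 panel each, with 1 point per rat in the 4 groups (control and exposed, D0 and D28); the bar beside each group is its mean and SD. Exposed rats lay above all control rats of their day for Retnla (12.43 against 9.17 on D0) and Chia on both days and for Chi3l1 on D0, while the groups overlapped for Arg1, Arg2 and Retn.

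The Retnla signal came from the probe at chr11:53206606-53206665 on the minus strand (rn4, as the array files give it), which starts at base 89 of the transcript. The resistin-like genes resemble each other, and the probe that reads base 79 onward of Retnlg, a resistin-like gene of myeloid cells, shares a run of 19 bases with it. Both probes are printed because Retnlg is examined beside Retnla, with the shared run in capitals:
Retnla probe: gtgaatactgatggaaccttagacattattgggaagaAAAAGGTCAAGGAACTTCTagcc
Retnlg probe: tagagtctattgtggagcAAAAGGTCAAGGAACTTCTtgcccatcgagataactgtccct
The probes of Retn and Retnlb and the other Retnlg probes shared at most 7 bases in a row with the Retnla probe.

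Of the resistin-like relatives of Retnla, Retnlb was called on both days and Retnlg was not. Retnlb (resistin-like beta, a product of goblet cells in the gut) was well above background in 0 of 12 control rats, but in 3 of 5 exposed rats on D0 and 4 of 6 on D28. Its difference passed limma on D0 (adjusted p = 0.00065) and on D28 (adjusted p = 0.00563). As it was above background in exposed rats only, the filter on dim probes may have kept it through them. These p-values are therefore given as a description. With a filter that asked for a signal above background on every array of some group, Retnlb was not in the fit. With the control side raised to the dimmest signal well above background, the FC was 2.54 on D0 and 2.22 on D28. These are not lower limits, because the mean includes a probe above background on no array and some other processing gave smaller differences. Only 1 of 2 probes was measured: the probe at base 425 was above background in those exposed rats and in no control rat, and the one at base 359 on no array. Its signals were low throughout, from 5.58 to 21.2 in exposed and from 2.77 to 5.40 in control rats. With the authors' deposited normalized values the difference fell under the FC threshold on D0 (0.51 on the log2 scale, adjusted p = 0.00149) and lost the call on D28 (0.29, adjusted p = 0.095). With another background correction (normexp) it was 0.27 (adjusted p = 0.0163) and 0.19 (adjusted p = 0.128), and among the arrays of D28 alone its adjusted p was 0.0577.

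For Retnlg, the exposed minus control difference was 0.10 (95% confidence interval -0.37 to 0.57) on D0 and 0.44 (-0.01 to 0.89) on D28. Its 3 probes differed in sign on D0: the probe at base 147 gave -0.83, while those at bases 79 and 531 gave 0.63 and 0.50. Within groups the Retnlg probes at bases 79 and 531 followed Retnla, with r = 0.86 and r = 0.89 over the 23 arrays after group means were removed, against r = 0.33 for the probe at base 147. Only the probe at base 79 carries the run of 19 bases, and the part of cross-binding was not tested.

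Both chitinase family members of the set were over-expressed in exposed rats on both days. These 2 were the only calls among the 5 tested genes on each day, against 1.10% of all 23009 genes called higher on D0 and 0.487% on D28 (adjusted p under 0.05 and FC of at least 1.5). The set was chosen with earlier results known, so these shares are given as a description only.

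Chia showed the larger of these changes. The 5 exposed rats of D0 had normalized values of 16.92, 16.56, 16.48, 15.54 and 16.35, while the 6 control rats lay between 14.57 and 15.00 with a median of 14.86. No exposed rat overlapped the control rats, and exposed rat 4 was again lowest. The means were 16.37 ± 0.51 (SD, n = 5) and 14.83 ± 0.15 (SD, n = 6), a difference of 1.54 (SE 0.20), FC = 2.91 (95% confidence interval 2.18 to 3.87, adjusted p = 0.000156). On D28 the exposed rats ran from 15.60 through 16.00 to 16.51 and the control rats from 14.22 through 14.56 to 14.96, also without overlap. The difference on D28 was 1.43 (SE 0.19), FC = 2.69 (2.04 to 3.53, adjusted p = 0.000393).

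Chi3l1 rose on both days, less firmly on D28. On D0 the exposed rats had values of 12.54, 12.25, 11.68, 11.57 and 12.06, and the control rats lay between 10.41 and 11.11 with a median of 10.88. All 5 exposed rats were above all controls. The D0 means were 12.02 ± 0.40 (SD, n = 5) and 10.83 ± 0.24 (SD, n = 6), a difference of 1.19 (SE 0.24), FC = 2.27 (1.62 to 3.20, adjusted p = 0.00619). On D28 the exposed rats lay between 11.003 and 11.68 with a median of 11.59 and the control rats from 9.78 through 10.52 to 11.26. There 4 of 6 exposed rats lay above all controls, and the control rats spread more widely (SD 0.60) than the exposed (SD 0.27). The difference on D28 was 0.95 (SE 0.22), FC = 1.93 (1.40 to 2.67, adjusted p = 0.0371).

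The D28 call of Chi3l1 depended on the fit. It was lost among the arrays of D28 alone (adjusted p = 0.197), with arrays weighted by quality (adjusted p = 0.0681), and when any 1 of control rats 2, 3, 4 and 6 or exposed rats 1, 3, 4, 5 and 6 of D28 was left out (adjusted p from 0.0587 to 0.0925). Its difference stayed between 0.80 and 1.10 in every fit tried.

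Every exposed rat lay above every control rat for 2 of the 5 tested genes on D0, Chia and Chi3l1, and for 1 on D28, Chia. Over all genes such a separation was found for 1.94% on D0 and 0.678% on D28.

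No other chitinase family gene on the array was called. Chit1, the chitinase of activated macrophages, was lower in all 5 exposed rats than in any control on D0, with means of 8.15 ± 0.10 (SD, n = 5) and 8.66 ± 0.27 (SD, n = 6). Such a separation held for 2.37% of all genes, and the difference of -0.51 (SE 0.17) did not pass the test (adjusted p = 0.151). On D28 it was -0.30 (adjusted p = 0.564). Ctbs, a lysosomal chitobiase, differed by -0.03 and -0.13, and Chid1, a chitinase-domain protein, by 0.17 and 0.02, none of which passed. Chi3l3 was above background in 1 of 23 rats.

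**Figure D2:**
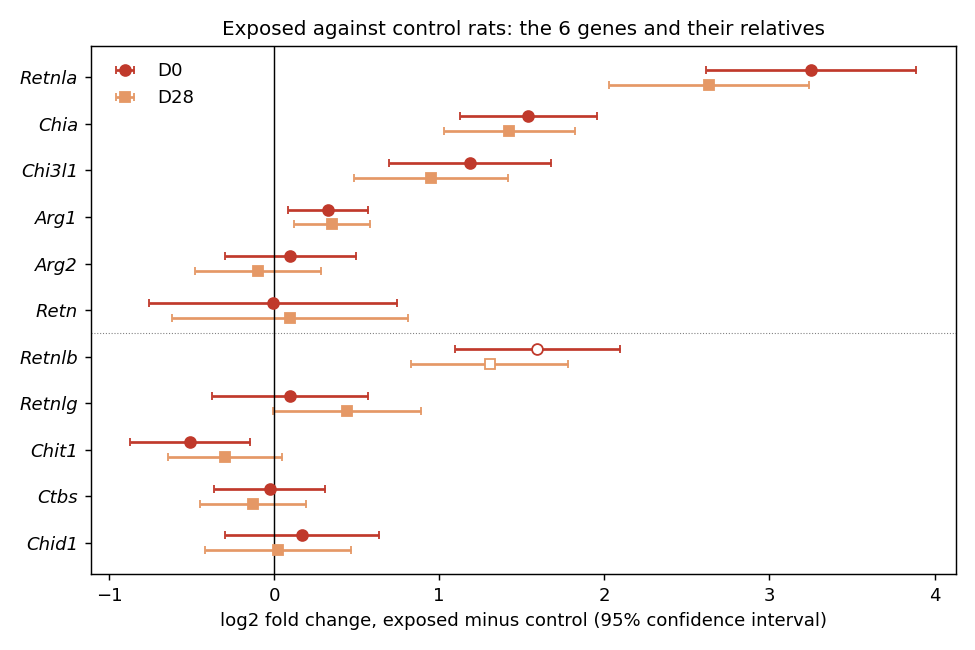
Log2 fold change, exposed minus control, on D0 (circles) and D28 (squares) for the 6 genes (above the dotted line) and 5 relatives, with 95% confidence intervals from limma; open symbols mark Retnlb, which was above background in no control rat. Retnla (3.25 and 2.64), Chia (1.54 and 1.43) and Chi3l1 (1.19 and 0.95) lay to the right of 0 on both days, the intervals of Arg2 and Retn spanned 0, and Retnla was chosen for its rise.

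The arginases showed no call. Arg1 had a bright signal in every rat. On D0 its exposed values were 12.20, 12.06, 12.13, 12.38 and 12.08, and the control values ran from 11.64 through 11.81 to 12.18. The exposed rats sat in the upper part of the control range, with 2 of 5 above it. The difference was 0.33 (SE 0.12), FC = 1.26, with a 95% confidence interval of 0.09 to 0.57 on the log2 scale, which passed neither threshold (adjusted p = 0.171). On D28 the exposed rats ran from 11.99 through 12.07 to 12.25 and the controls from 11.40 through 11.78 to 12.06, so that 4 of 6 exposed rats lay above all controls. The D28 difference was 0.35 (SE 0.11), FC = 1.28 (0.12 to 0.58 on the log2 scale, adjusted p = 0.145).

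Arg2 was not called. On D0 the exposed rats had values of 6.32, 6.22, 5.90, 5.48 and 5.60 against 5.40 to 6.23 in the controls. On D28 they lay between 5.45 and 5.89, inside the control range of 5.11 to 6.38. The differences were 0.10 (95% confidence interval -0.30 to 0.50, adjusted p = 0.973) and -0.10 (-0.48 to 0.28, adjusted p = 0.927), and each turned its sign in other fits.

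Retn, the resistin gene after which the family is named, was not called either. Its D0 values were 5.38, 6.83, 5.49, 4.74 and 5.78 in exposed rats and 5.06 to 6.21 in controls. On D28 they ran from 5.30 through 5.81 to 7.70 in exposed rats and from 5.61 through 6.01 to 6.30 in controls. The rat numbered 2 was highest in both exposed groups, a different animal on each day. The differences were -0.01 (95% confidence interval -0.76 to 0.74, adjusted p = 0.999) and 0.10 (-0.62 to 0.81, adjusted p = 0.966), with signs that turned in other fits. The 10 Retn spots of an array varied with a median SD of 0.16 on the log2 scale and at most 0.36, and the SD between rats of a group ran from 0.24 to 0.84.

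The Retn signal was set beside fat cell genes. Adipoq, the adiponectin gene of fat cells, was the gene most like Retn over the 23 arrays (r = 0.77). The 2 rats with the highest Retn, exposed rat 2 of D28 (7.70) and exposed rat 2 of D0 (6.83), also had the highest Adipoq signals, 7.21 and 6.45, and the highest mean over 10 fat cell markers, 5.98 and 5.90. In the other rats the marker mean did not follow Retn closely: control rat 2 of D28 ranked 9 of 23 for Retn and 23 for the marker mean, and exposed rat 5 of D0 ranked 13 and 3. None of these 10 markers was called on either day. Over all genes 1.10% were called higher and 0.700% lower on D0, and 0.487% and 0.269% on D28. Plin1, a coat protein of fat droplets, was above background on no array, and the mean of the 10 markers ran over similar ranges in exposed (5.30 to 5.98) and control rats (5.27 to 5.85). The part of fat tissue in the Retn values was not tested.

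Comparing the days within a treatment, none of the 6 genes passed the test between the control rats of D28 and D0, where limma called 0.608% of all genes and 0 of the 6 had an unadjusted p under 0.05. The control differences ran from -0.33 for Chi3l1 (adjusted p = 0.565) to 0.36 for Retnla. Among exposed rats 0.352% of all genes were called between the days and 0 of the 5 tested genes, with Chi3l1 as the 1 gene at an unadjusted p under 0.05 (-0.56 on the log2 scale, 95% confidence interval -1.05 to -0.07, adjusted p = 0.568). Chia moved by -0.38 (-0.79 to 0.04, adjusted p = 0.694).

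The size of the exposure effect was also set against itself on the 2 days. The effect on D28 minus that on D0 was -0.23 (95% confidence interval -0.91 to 0.44) for Chi3l1, -0.11 (-0.69 to 0.46) for Chia and 0.02 (-0.31 to 0.36) for Arg1. None of the 5 tested genes passed (limma, adjusted p = 1.00 for each, 0 with an unadjusted p under 0.05), where 0.0304% of all genes did. The intervals leave room for a loss of Chi3l1 as large as 0.91 on the log2 scale. For Retnla the same difference was -0.62 (SE 0.42).

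Arrays that shared a slide gave the same direction for Retnla, Chia and Chi3l1. Arrays of different groups on the same slide deviated together from their group means (mean r = 0.18 over genes, 32 of 45 pairs over 0.1, against a mean of -0.05 for arrays of other slides). On D0, 4 slides held rats of both treatments, and the within-slide differences ran from 2.43 to 3.48 for Retnla, from 0.69 to 2.11 for Chia and from 0.70 to 1.61 for Chi3l1. On D28, 3 slides did, with 2.13 to 2.88 for Retnla, 1.06 to 1.69 for Chia and 0.45 to 1.12 for Chi3l1. Every one of these was positive, and the slide that gave the smallest value of each of the 3 genes was the same on both days. Arg1 was higher in exposed rats on 4 of 4 slides on D0 (0.02 to 0.59) and on 2 of 3 on D28 (-0.07 to 0.51). With the slide as a block in the fit, Chia and Chi3l1 kept their calls on both days, and Retn, Arg1 and Arg2 were not called.

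**Figure D3:**
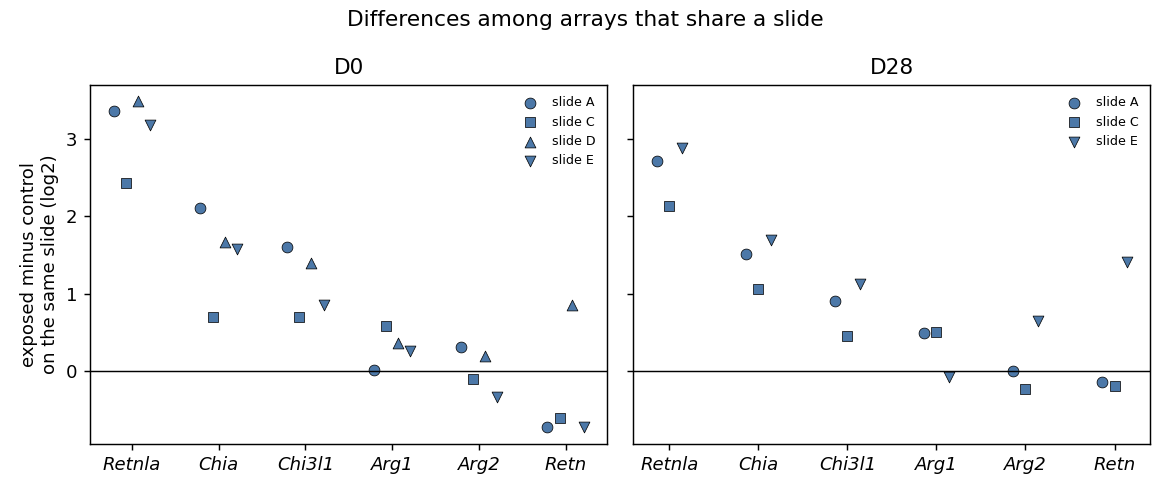
Exposed minus control difference in log2 signal among arrays on the same slide, for the 6 genes on D0 and D28; each symbol is a slide, lettered A, C, D and E. Retnla, Chia and Chi3l1 were above 0 on every slide, slide C giving the lowest value of each of the 3 (2.43 for Retnla on D0), while Arg2 and Retn fell on both sides of 0.

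Across rats, Retnla and Chia varied together. Over the 23 arrays they correlated at r = 0.95, most of which is the gap between exposed and control rats, and after group means were removed at r = 0.79. Chi3l1 followed Retnla less closely, with r = 0.80 over all arrays and r = 0.44 after group means were removed. For Arg1 the same pair of values was 0.64 and -0.02, so that no likeness was left once the group means were removed. Arg2, which was not called, gave 0.18 and 0.61, the latter above the value of Chi3l1, and Retn gave 0.12 and 0.23. Exposed rat 4 of D0 was lowest of its group for Retnla, Chia, Chi3l1, Arg2 and Retn, and highest for Arg1. Its array also had the lowest share of spots above background (69.5%), and the part of array signal in these correlations was not tested. These are descriptions over arrays that share group, slide and normalization, with no test.

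**Figure D4:**
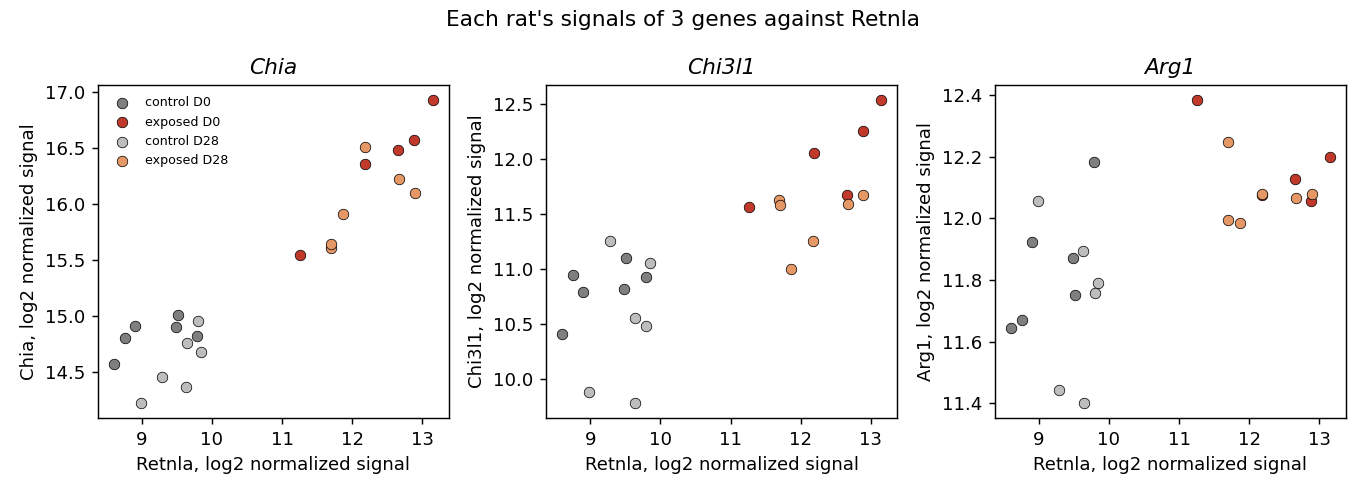
Log2 normalized signal of Chia, Chi3l1 and Arg1 (vertical) against Retnla (horizontal), 1 point per rat, coloured by group. Over the 23 rats, exposed and control, the correlation with Retnla after group means were removed was r = 0.79 for Chia, r = 0.44 for Chi3l1 and r = -0.02 for Arg1.

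Of 17895 genes above background on most arrays, those most like Retnla over the 23 arrays were Cfi (complement factor I, r = 0.97), Slc26a4 (the anion exchanger pendrin, r = 0.96), LOC102550137 (r = 0.95), Lpo (lactoperoxidase, r = 0.95), Chia, Scn10a (a sodium channel, r = 0.94), Sema4a (a semaphorin, r = 0.94) and LOC689757 (r = 0.93). Scn10a was well above background in all 11 exposed rats but in 1 of 6 control rats on each day, so its likeness rests on control signals near background. After group means were removed, Cfi (r = 0.83), Fcar (an Fc receptor for immunoglobulin A, r = 0.83), Slc26a4 (r = 0.82), Spp1 (osteopontin, r = 0.81) and Retnlg (r = 0.81) led. Cfi and Slc26a4 stood in both lists. Fcar showed no call of its own, with differences of 0.29 (adjusted p = 0.878) and 0.49 (adjusted p = 0.593).

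The other genes had different neighbours. Chia was most like Slc26a4 (r = 0.96), Saal1 (r = 0.95) and Orm1 (orosomucoid, an acute phase protein, r = 0.95). Among the genes like Chi3l1 were Fetub (fetuin B, r = 0.96) and Prdx5 (a peroxiredoxin, r = 0.90). Arg1 was most like Lyplal1 (r = 0.85), Nek6 (r = 0.83) and Glb1 (lysosomal beta-galactosidase, r = 0.80). Neighbours of Arg2 were Tubgcp5, Fam72a and LOC102555751 (r = 0.75 to 0.76), and after Adipoq those of Retn were Ndufb2 (r = 0.76) and MGC109340 (r = 0.72).

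No cytokine that drives alternative activation was called beside Retnla. Of 8 measured type 2 ligands and 20 receptors and signalling genes, 0 were called on either day by limma, beside 1.10% of all genes called higher and 0.700% lower on D0, so that a count of 0 in lists of this size is near the background. Among the ligands 2 had an unadjusted p under 0.05 on D0 (1 higher, 1 lower) and none on D28, and among the receptors and signalling genes 5 did on D0 (3 higher, 2 lower) and 1 on D28 (higher). Over all genes 5.60% were higher and 6.35% lower at that threshold on D0, and 4.82% and 6.18% on D28. Klf4, a transcription factor, gave -0.58 on D0, past the adjusted p (0.009) but just under the FC threshold, and -0.12 on D28. The list medians were 0.06 and -0.07 for the ligands and 0.07 and 0.05 for the receptors and signalling genes, beside medians of -0.00081 and -0.0054 over all genes.

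Il4, the main inducer of Retnla in cultured macrophages, was above background in 2 of 6 control and 0 of 5 exposed rats on D0, and in 1 of 6 and 0 of 6 on D28. Its difference was -1.76 (95% confidence interval -3.00 to -0.52, limma adjusted p = 0.144) on D0 and -0.17 (-1.35 to 1.01) on D28. Most of these Il4 signals were not above background, so the size of its difference is uncertain. Il13, which shares the Il4 receptor chain, was above background in 3 of the 5 exposed rats and in 4 of the 6 controls on D0, with a difference of -0.41 (95% confidence interval -1.14 to 0.32, adjusted p = 0.818). On D28 it was 0.20 (-0.49 to 0.89). Il33, the alarmin of lung epithelium, had a bright signal and gave -0.41 (-0.83 to 0.01, adjusted p = 0.44) on D0 and -0.15 (-0.55 to 0.25) on D28. Il4r, the receptor chain for both cytokines, gave -0.25 (-0.70 to 0.20) and -0.15 (-0.58 to 0.28), and Stat6, the transcription factor it activates, 0.10 (-0.30 to 0.50) and 0.06 (-0.32 to 0.45). None of these differences passed the test.

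Few of the other alternative activation markers were called. Of 28 measured, 1 was called on D0 and 0 on D28 (limma), against 0.700% of all genes called lower on D0 and 0.269% on D28. At an unadjusted p under 0.05, 9 were higher and 3 lower on D0, and 4 were higher and 2 lower on D28. The shares over all genes were 5.60% higher and 6.35% lower on D0, and 4.82% and 6.18% on D28. The 1 called gene was Alox15, a lipoxygenase of macrophages and eosinophils, which was lower in exposed rats: 5.99 ± 0.49 (SD, n = 5) against 7.02 ± 0.29 (SD, n = 6), a difference of -1.03 (adjusted p = 0.0213). On D28 Alox15 gave -0.86 (adjusted p = 0.0725). Mrc1, the mannose receptor, gave 0.26 (adjusted p = 0.699) and -0.07 (adjusted p = 0.947), and Cd163, the haemoglobin scavenger receptor, 0.30 (adjusted p = 0.735) and 0.08 (adjusted p = 0.948). Folr2 gave 0.51 on D0, past the adjusted p (0.0391) but under the FC threshold, and 0.40 (adjusted p = 0.147) on D28. The list leaned upward on D0, with 20 of 28 genes higher in exposed rats and a median of 0.26, and less on D28, with 18 higher and a median of 0.09. The D0 call of Alox15 was lost when control rat 3 or exposed rat 1, 2, 3 or 5 of D0 was left out (adjusted p from 0.0527 to 0.0674), and the D28 difference was called without exposed rat 4 of D0 (adjusted p = 0.0374) or exposed rat 5 of D28 (adjusted p = 0.0182).

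Markers of the classical state showed 1 call of 18 on D0 and 0 on D28 (limma), against 1.10% and 0.487% of all genes called higher. At an unadjusted p under 0.05 there were 5 and 3, all higher, against 5.60% and 4.82% of all genes. Tnf, the inflammatory cytokine of activated macrophages, was over-expressed on D0 at 8.25 ± 0.33 (SD, n = 5) against 7.20 ± 0.41 (SD, n = 6), with all 5 exposed rats above all controls, FC = 2.08 (1.51 to 2.87, adjusted p = 0.00888). Such a separation held for 1.94% of all genes on D0. On D28 the FC of Tnf was 1.20 (0.88 to 1.63, adjusted p = 0.737). Nos2, the nitric oxide synthase that competes with Arg1 for arginine, gave -0.05 (adjusted p = 0.996) and -0.28 (adjusted p = 0.877). The list medians were 0.12 and 0.09.

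In arginine and polyamine metabolism, 1 of 29 genes was called on each day (limma), against 1.10% and 0.487% of all genes called higher. At an unadjusted p under 0.05, 2 were higher and 3 lower on D0, and 3 and 3 on D28. The called gene was Slc7a7, which codes for a transporter of arginine and other cationic amino acids. It was 7.83 ± 0.31 against 7.06 ± 0.23 (SD, n = 5 and 6) on D0, FC = 1.71 (1.27 to 2.30, adjusted p = 0.0451), with all 5 exposed rats above all controls. Such a separation held for 1.94% of all genes. On D28 Slc7a7 gave FC = 1.85 (1.40 to 2.46, adjusted p = 0.0269), with 5 of 6 above. The list medians were 0.02 and 0.04. The D0 call lay close to the threshold and was lost in 13 of 23 fits that each left out 1 rat (adjusted p up to 0.13): without control rats 1, 3, 4, 5 or 6 or exposed rats 1, 2, 4 or 5 of D0, or control rats 2 or 3 or exposed rats 1 or 6 of D28. The D28 call was lost in 5 of 23 (adjusted p up to 0.0663), without control rats 4 or 6 or exposed rats 1, 3 or 5 of D28, and among the arrays of D28 alone (adjusted p = 0.171).

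**Figure D5:**
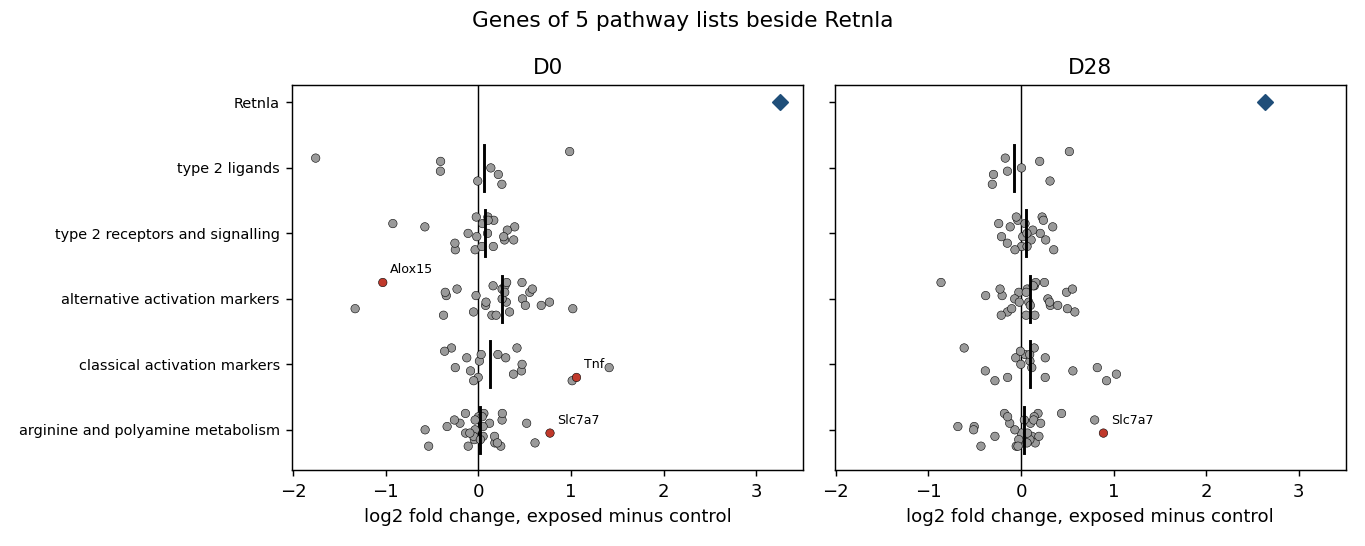
Log2 fold change, exposed minus control, of each measured gene of 5 lists on D0 (left) and D28 (right), with the list median as a vertical bar, called genes in red with their names, and Retnla as a diamond on top. Retnla (3.25 and 2.64) lay to the right of every listed gene on both days, but it was chosen for its rise. The list medians lay between -0.07 and 0.26.

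Part of the macrophage marker list was higher in exposed rats on D0. Of 14 measured, 2 were called on D0 (C1qb, a complement subunit, at 0.65, adjusted p = 0.0078, and Siglec1, a sialic acid receptor, at 0.89, adjusted p = 0.00262) and 0 on D28 (limma), against 1.10% and 0.487% of all genes called higher. At an unadjusted p under 0.05, 8 were higher and 0 lower on D0, and 5 were higher and 1 lower on D28. The shares over all genes at that threshold were 5.60% higher and 6.35% lower on D0, and 4.82% and 6.18% on D28. The other 12 were not called on D0, and ran from -0.25 for Adgre1, an adhesion receptor, to 1.04 for Marco (adjusted p = 0.272). Among them were Csf1r, the macrophage growth factor receptor, at 0.01, Lyz2, a lysozyme, at 0.06, Cd14 at 0.50 and C1qa at 0.56. Ctss gave 0.45 on D0, past the adjusted p (0.0323) but under the FC threshold. The mean over the list ran from 10.32 to 10.82 in exposed and from 9.98 to 10.24 in control rats on D0, without overlap, and from 10.14 to 10.41 and 9.80 to 10.20 on D28. The list medians were 0.46 and 0.22. Marco was above background on no array of D28. Cd68, the general macrophage marker, gave 0.55 and 0.42, past the adjusted p (0.00293 and 0.0293) but under the FC threshold. The part of macrophage number in the values of Retnla, Chia and Chi3l1 was not tested.

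Markers of other cell types were counted in the same way. Over all genes 1.10% were called higher and 0.700% lower on D0, and 0.487% and 0.269% on D28. A count of 0 in lists of this size is therefore near the background. Of 11 neutrophil markers 1 was called on D0, Lcn2 at 1.65 (adjusted p = 0.00139), and 0 on D28, and the list medians were -0.03 and -0.14. Of 10 secretory airway cell markers Bpifb1, a secreted airway protein, was called on both days at 2.30 (adjusted p = 9.42e-05) and 1.21 (adjusted p = 0.0246), with list medians of -0.22 and -0.20. The 9 type II pneumocyte markers had medians of 0.24 and 0.11 with no call, their means running from 14.50 to 14.76 in exposed and 14.38 to 14.48 in control rats on D0. All 8 ciliated cell markers were lower in exposed rats on both days, with medians of -0.29 and -0.42 and no call, and their means on D28 did not overlap (8.89 to 9.39 in exposed and 9.46 to 9.80 in control rats). Of 4 eosinophil markers 0 were higher in exposed rats on either day, with medians of -0.44 and -0.21. Only Alox15 was called, on D0, and Epx, the eosinophil peroxidase, was above background on no array. Mast cell and T cell markers gave no call. Of 9 mast cell markers 0 were higher on D0 and 4 on D28 (medians -0.29 and -0.02), and of 7 T cell markers 5 and 6 were (medians 0.05 and 0.11). All 5 heart muscle markers were lower in exposed rats on both days, with medians of -0.38 and -0.49. Of these Myl7, a myosin light chain of the atria, was called on both days (-0.60 and -0.63), while Actc1, Tnni3 and Tnnt2 passed the adjusted p on D28 (0.0489, 0.0467 and 0.0393), and Tnni3 also on D0 (0.0499), but not the FC. The mean over the 5 ran from 8.60 to 9.08 in exposed and 9.04 to 9.40 in control rats on D0, and from 8.74 to 8.92 and 9.18 to 9.53 on D28, without overlap, and Nppa was above background on no array. The part of these cell types in the values of the 6 genes was not tested.

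Retnla and Chia moved together, so the bases before their start sites are shown (RefSeq, GRCr8). Such a window was matched for 4 of the 6 genes, and those of Arg1 and Arg2 were not analysed here. The windows of 250 bases were searched on both strands for 4 motifs: TTCNNNNGAA (STAT6), TGANTCA (AP-1), TTGCNNAA (C/EBP) and GGGNNNNNCC (NF-kB). Over 33469 promoters of that length they were present in 6.25%, 6.34%, 9.22% and 42.3%. The Retnla window, chr11:65426187-65426436 on the minus strand, and the Chia window, chr2:196302437-196302686 on the plus strand, are printed with matches in capitals:
Retnla promoter: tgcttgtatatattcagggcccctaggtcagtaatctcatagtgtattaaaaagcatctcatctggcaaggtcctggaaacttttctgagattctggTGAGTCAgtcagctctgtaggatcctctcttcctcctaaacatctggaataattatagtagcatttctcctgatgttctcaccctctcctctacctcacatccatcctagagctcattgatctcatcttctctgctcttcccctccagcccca
Chia promoter: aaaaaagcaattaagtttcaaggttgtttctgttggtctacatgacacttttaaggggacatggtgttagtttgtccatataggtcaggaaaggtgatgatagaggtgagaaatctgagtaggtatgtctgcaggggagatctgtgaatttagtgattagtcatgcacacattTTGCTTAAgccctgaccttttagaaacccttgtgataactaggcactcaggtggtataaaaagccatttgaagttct
The Retnla window held 1 AP-1 match, starting 153 bases before the start site, and the Chia window 1 C/EBP match at 77 bases. The Chi3l1 window held none of the 4 motifs, and the Retn window held only the NF-kB letters, at 4 overlapping or separate places. Of the relatives, the Retnlg window held 1 STAT6 match, starting 111 bases before the start site, and the Retnlb window none of the 4 motifs. The first bases of the Retnla window resemble the last bases of the Retnlg window. The windows of these genes therefore do not line up, and their motifs cannot be set against each other. Which start site of Retnla is used in lung was not tested. A match is a run of letters and not a measured site, and a window without a match says only that these letters are not in it.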

How the data were processed

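The authors deposited 1 Agilent Feature Extraction file per array, with background-subtracted processed signal intensity, and a table of all arrays whose values are quantile-normalized intensity (identical sorted columns, checked). The submitters' processing notes name Feature Extraction 11.0.1.1, and the file headers give 11.0.1.1 for 22 arrays and 12.0.1.1 for 1. The 4 groups and replicate numbers came from the sample titles. For the exposed D28 rats the source field names day 0, which goes against title and description, and the title was followed.

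From the processed signals, control spots and outlier-marked spots were left out, 40416 of 45598 probes were kept because, on 5 or more arrays, they exceeded the 95th percentile of the 308 negative controls, log2 values were quantile normalized, spots of a probe and probes of a gene were averaged (48 genes with missing values dropped), and limma 3.58.1 (R 4.3.3) was fitted to 4 group means over 23 arrays, with 19 residual degrees of freedom. The filter on negative controls, quantile normalization, limma and the thresholds follow the study's methods. Its batch terms, which are not named, were not used, no array was removed as an outlier, and the processed signals and the averaging to genes were chosen here. A gene was called at a Benjamini-Hochberg adjusted p under 0.05 over 23009 genes and an FC of at least 1.5. The scripts were tested on simulated data. For the FC of Retnlb, the control group was below background and was replaced by the higher of its own signal and the dimmest signal above background.

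Each replicate is 1 rat, and nothing in the labels ties replicate numbers across groups. Differences were also taken within slides. Alternatives changed the normalization, background correction, filter, probe rule, fit and rats included.

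The 6 genes and all lists were chosen with earlier results of these data known. Named genes are the 6, their measured relatives, called genes of 5 pathway lists, 8 fixed genes, and those with the highest r, taken over genes above background on 50% or more of the arrays. Gene names are those of the array design. For 1 of these genes the result is not reported here.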

Additional observations from a re-analysis of the deposited data

Results flagged for a closer look

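In 24 groups of 5 or 6 rats (6 genes in 4 groups), 2 groups held a rat that stood apart from the others of its group by more than Dixon's 95% limit, where chance gives about 1 in 20. For Retn, exposed rat 2 of D28 had a log2 signal of 7.7044 and its nearest neighbour 6.1121, a gap of 0.6628 of the group's range. Without that rat the exposed minus control difference of Retn on D28 was -0.23 in place of 0.10, and neither passed the test (adjusted p = 0.811 and 0.966). For Arg1, exposed rat 5 of D28 had 12.25 and its nearest neighbour 12.081, a gap of 0.6419 of the range. No other value of the 6 genes met the limit, and none of the 5 tested genes passed the test for a difference of the exposure effect between the days.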

How the results depend on the processing

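The Retnla difference kept its sign, between 3.11 and 3.52 on D0 and 2.52 and 2.67 on D28 over 14 other settings, and between 3.08 and 3.54 and 2.49 and 2.73 when each rat was left out. Chia kept its calls throughout, and Chi3l1 on D0. The 2 calls on D28 became 1 with array quality weights and 1 among the arrays of the day alone, and 1 to 2 without single rats. Pathway and family list calls on D0 (4) became 7 by adjusted p alone and 9 with array quality weights, and 2 to 5 without single rats. Those on D28 (2) became 1 with normexp, 1 with the deposited table, 0 among the arrays of the day alone, and 1 to 3 without single rats. No difference that changed sign was called. Arg2 between control days (-0.02) became 0.048 with 75th percentile scaling, 0.0098 with cyclic loess, 0.0012 with normexp and 0.032 with array weights, and -0.14 to 0.12 without single rats. Arg2 on D28 became 0.036 with the slide as a block and -0.23 to 0.022 without single rats, and on D0 -0.0049 to 0.21. Retn on D0 became 0.073 with 75th percentile scaling, 0.022 with normexp, 0.030 with the deposited table and 0.42 with array weights, and -0.30 to 0.22 without single rats, and on D28 -0.23 to 0.25. With the replicate number as a block (same-numbered arrays of different groups deviated together at a mean r of only 0.02, with 12 of 33 pairs over 0.1, so the rats were not paired), Retn on D0 was 0.032, Alox15 on D0 lost its call (-1.04, adjusted p = 0.0632), and no other call changed among the genes followed. Slc7a7 on D0 was under the FC with normexp (0.57) and missed the adjusted p with each probe on its own (0.0506). Alox15 on D28 passed with the stricter filter on dim probes (adjusted p = 0.0413). The causes were not tested. Dim signals limit what is said of Retnlb, Il4, Il13 and Chi3l3.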
